A study of Homo sapiens with 12 samples.

Results

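The transcripts of 10 Golgi enzymes that build and finish N-glycans were followed through RNA-seq of prostate cancer cells in which GALNT7, an enzyme of O-glycosylation, had been lowered or raised. The 10 genes were taken by name, by a rule that uses no measured value but was written with earlier results of these data known, as the transferases and the mannosidase that branch, bisect, fucosylate, galactosylate and sialylate complex N-glycans. All 10 were present among the 59424 Ensembl genes of the 2 deposited tables. Stable lines had been made with lentivirus. CWR22RV1 cells received either a control hairpin (shControl) or one that targets GALNT7 (GALNT7 KD). DU145 cells received either a control ORF vector (OE control) or the GALNT7 ORF (GALNT7 OE). The 4 groups held 3 biological replicates each, 12 libraries in all, and no other treatment or time point is named in the labels. Knockdown and overexpression were made in different cell lines, so the effect of the cell line cannot be told apart from that of the direction in which GALNT7 was changed. Whether each stable line was a pool or a clone is not given in the sources used here, so p-values measure only the spread between the 3 replicates of a group.

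N-glycans are added as a preformed oligosaccharide to asparagine residues in the endoplasmic reticulum and are then trimmed and rebuilt in the Golgi. MGAT1 adds the N-acetylglucosamine that starts the conversion to hybrid glycans, MAN2A1 removes further mannose, and MGAT2 opens the other arm for complex glycans. MGAT4A, MGAT4B and MGAT5 add further branches, MGAT3 adds the bisecting N-acetylglucosamine, FUT8 adds fucose to the core, B4GALT1 adds galactose to the antennae and ST6GAL1 caps them with sialic acid. GALNT7 acts in another pathway, the addition of GalNAc to serine and threonine. The 10 genes therefore serve as a contrast to the O-glycan enzymes, and the question is whether their transcripts moved when GALNT7 was lowered or raised.

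The CWR22RV1 libraries held 18364512 to 22264533 reads, and the DU145 libraries 21628718 to 24356910. GALNT7 was compared with the labels before the members. The normalised counts, which are reads divided by 1 size factor per library, of GALNT7 were 862, 1042 and 1093 in shControl cells and 481, 501 and 399.7 in GALNT7 KD cells. In DU145 cells they were 1051, 928 and 913 in the OE control and 1988, 2221 and 2334 in GALNT7 OE cells. The log2 fold changes were -1.11 and 1.18, so every library stood on the side its label gives. The luminal epithelial keratin gene KRT18 had at least 4479 normalised counts in every library. The basal keratin gene KRT5 was at 0 in all 12 libraries and the leukocyte marker PTPRC at or below 2.1. The summed level of 6 markers of leukocytes, endothelium and fibroblasts was 82.1 to 117 in shControl and 104 to 129 in GALNT7 KD libraries, and 309 to 433 in OE control and 79.5 to 167 in GALNT7 OE libraries. In DU145 cells the fibroblast collagen gene COL1A1 had 287 to 419 in the OE control and 53.6 to 154 in GALNT7 OE. The other fibroblast markers were low there, with means of 2.68 and 4.22 for COL3A1, 9.31 and 8.82 for PDGFRB and 3.33 and 1.30 for DCN. The endothelial marker PECAM1 had means of 4.0 and 19.3, with 49.3 in 1 GALNT7 OE library. In CWR22RV1 cells the mean of COL3A1 was 23.7 in shControl and 9.14 in GALNT7 KD, and that of DCN 12.4 and 29.9. The part of these markers in the results was not tested.

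Promoter windows of the 5 members with such a window whose transcripts passed the test in DU145 cells are shown so that those of the genes that rose, MGAT2 and MGAT5, can be set beside those of the genes that fell, MGAT4B, B4GALT1 and MAN2A1. Each window runs 5′ to 3′ from 250 bases before the transcript start to 50 bases from it, from RefSeq on GRCh38.p14, at the start nearest to that of the gene model. That start lay 561 bases from the gene model's for MAN2A1 and 4 to 86 bases for the other windows shown. MGAT5, MGAT4B and B4GALT1 had 2 windows each, MGAT1 had 6 and FUT8 had 3, and only the nearest was used. Capitals mark the GC box GGGCGG on either strand. Windows were found for 8 of the 10 members, not for MGAT3 and MGAT4A. The positions are chr14:49620549-49620848 on the plus strand for MGAT2, chr2:134119685-134119984 on the plus strand for MGAT5, chr5:179806817-179807116 on the minus strand for MGAT4B, chr9:33167287-33167586 on the minus strand for B4GALT1 and chr5:109689677-109689976 on the plus strand for MAN2A1.
MGAT2: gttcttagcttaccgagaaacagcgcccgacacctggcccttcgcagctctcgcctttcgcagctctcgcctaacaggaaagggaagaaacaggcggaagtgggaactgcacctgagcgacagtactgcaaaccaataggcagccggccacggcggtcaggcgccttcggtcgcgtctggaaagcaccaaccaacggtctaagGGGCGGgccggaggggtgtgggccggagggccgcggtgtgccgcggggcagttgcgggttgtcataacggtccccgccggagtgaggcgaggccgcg
MGAT5: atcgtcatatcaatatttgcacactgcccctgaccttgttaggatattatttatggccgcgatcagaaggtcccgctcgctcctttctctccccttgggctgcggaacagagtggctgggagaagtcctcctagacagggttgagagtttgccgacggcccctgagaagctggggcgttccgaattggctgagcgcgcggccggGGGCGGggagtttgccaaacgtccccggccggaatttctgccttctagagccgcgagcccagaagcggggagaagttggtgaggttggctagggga
MGAT4B: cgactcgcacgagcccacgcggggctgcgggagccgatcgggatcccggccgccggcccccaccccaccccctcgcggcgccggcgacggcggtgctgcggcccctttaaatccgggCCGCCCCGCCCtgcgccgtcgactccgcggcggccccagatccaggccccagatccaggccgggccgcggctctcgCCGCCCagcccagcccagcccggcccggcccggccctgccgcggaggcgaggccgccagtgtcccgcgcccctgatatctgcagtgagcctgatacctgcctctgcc
B4GALT1: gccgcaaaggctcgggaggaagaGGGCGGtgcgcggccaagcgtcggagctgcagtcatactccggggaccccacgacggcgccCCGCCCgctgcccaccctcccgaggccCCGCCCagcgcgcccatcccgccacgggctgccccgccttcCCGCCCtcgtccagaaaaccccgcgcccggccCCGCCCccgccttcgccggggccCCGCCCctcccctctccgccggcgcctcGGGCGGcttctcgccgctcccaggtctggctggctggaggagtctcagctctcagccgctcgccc
MAN2A1: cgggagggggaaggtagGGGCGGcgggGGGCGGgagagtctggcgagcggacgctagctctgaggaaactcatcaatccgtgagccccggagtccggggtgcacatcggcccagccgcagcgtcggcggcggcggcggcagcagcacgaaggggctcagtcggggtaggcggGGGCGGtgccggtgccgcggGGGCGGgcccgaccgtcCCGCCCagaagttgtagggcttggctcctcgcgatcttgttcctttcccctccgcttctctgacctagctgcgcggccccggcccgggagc

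The GC box occurred 1 time each in the MGAT2 and MGAT5 windows, 3 times in MGAT4B, 7 times in B4GALT1 and 5 times in MAN2A1. Among the members that did not pass, ST6GAL1 had 2 and MGAT1 and FUT8 had 0. Of all 35116 windows in the table, 45% held at least 1, and the share with more than that was not counted. The GC content was 65.7% for MGAT2, 59.3% for MGAT5, 79% for MGAT4B, 78.3% for B4GALT1 and 73.3% for MAN2A1. For the members that did not pass it was 43.7% for MGAT1, 36% for FUT8 and 64% for ST6GAL1. The median over all windows was 58.7%. The CCAAT box (CCAAT, either strand) was found in the MGAT1, MGAT2 and MGAT5 windows and in 34.6% of all windows. The ETS core CGGAAG was found in the MGAT2 window, as in 19.5% of all windows. Neither the E-box CACGTG (7.26% of all windows) nor the FOXO core GTAAACA (3.42%) was found in any of the 8 windows. These letters were counted in the windows named, and binding was not measured. The windows were grouped by calls in these same data, and a difference between genes that rose and fell was not tested.

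The level of each enzyme was then read per kilobase of exon, in normalised counts per kilobase, so that genes of different length could be ordered within a cell line. The length was that of all annotated exons of a gene together, from 2687 bases for MGAT2 to 11815 for MAN2A1. It is not the length of the transcript expressed, so the order depends in part on the annotation. In shControl cells MGAT2 (361 ± 2.65, SD, n = 3) and MGAT4B (351 ± 29.7) were the highest and their libraries overlapped. B4GALT1 (294 ± 8.46) and MGAT1 (171 ± 9.28) followed. MGAT5 (95.7 ± 15.5) overlapped MAN2A1 (82.5 ± 8.03), which overlapped ST6GAL1 (76.8 ± 10.02), and FUT8 (52.8 ± 6.47) came next. MGAT3 (15.5 ± 2.77) and MGAT4A (4.30 ± 1.35) were the lowest. In OE control DU145 cells B4GALT1 was the highest (1844 ± 6.34), followed by MGAT2 (1454 ± 19.3) and MGAT4B (1248 ± 7.05). MGAT5 (306 ± 42.7) overlapped MAN2A1 (295 ± 8.95), and FUT8 (235 ± 8.03) and MGAT1 (154 ± 10.2) followed. ST6GAL1 (46.5 ± 8.29) overlapped MGAT4A (44.8 ± 2.84), and MGAT3 was the lowest at 0.489 ± 0.120. MGAT4A therefore made up 1.22% ± 0.393 of the summed MGAT4A and MGAT4B level per kilobase in shControl cells and 3.46% ± 0.227 in the OE control, so that MGAT4B was the main transcript of the pair in both lines. The 2 tables were scaled separately, and no level is compared between cell lines.

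**Figure D1:**
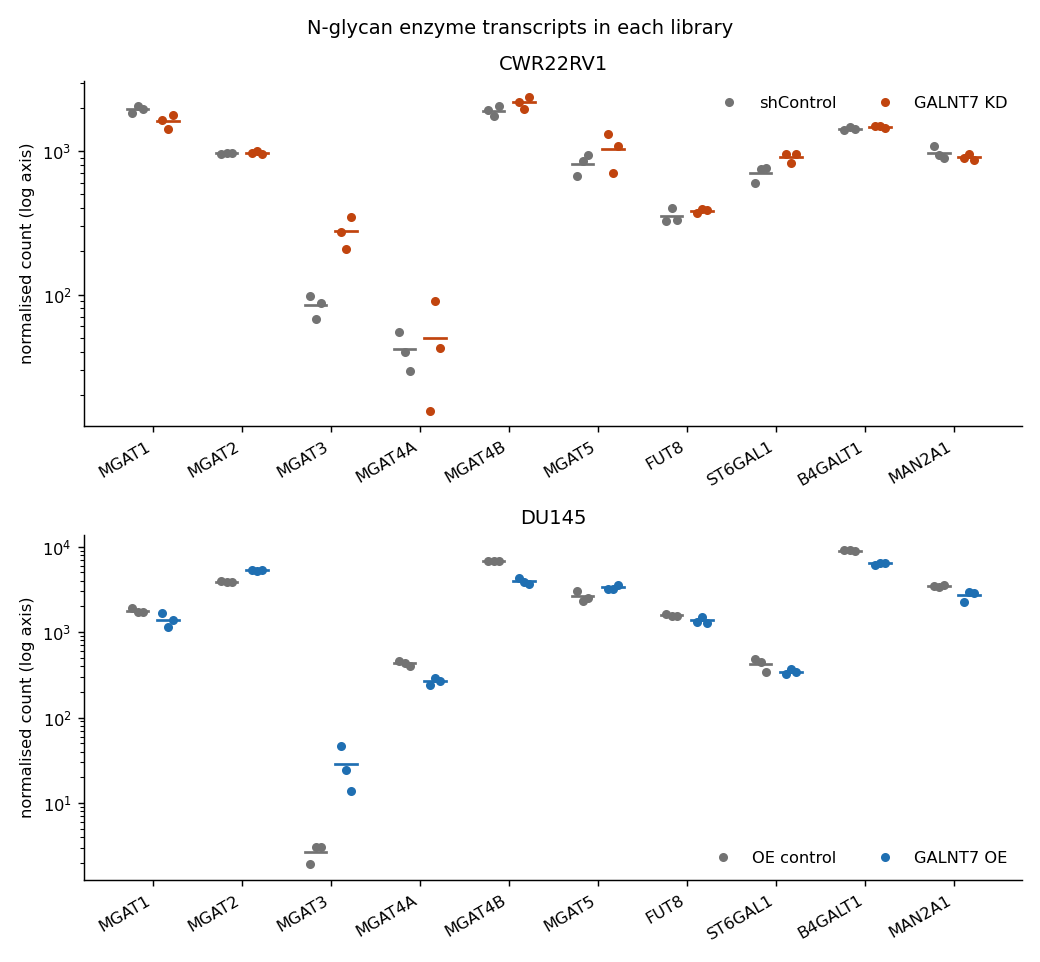
Normalised counts (log axis) of the 10 enzymes in each library of CWR22RV1 cells (top) and DU145 cells (bottom), with points for libraries and bars for group means. In CWR22RV1 cells MGAT3 stands out with 68.1 to 98.0 in shControl and 209 to 349 in GALNT7 KD cells. In DU145 cells the groups of MGAT2, MGAT4B and B4GALT1 lie apart, with MGAT4B spread from 3672 to 4297 in GALNT7 OE.

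In GALNT7 KD cells MGAT3 was the 1 member of 10 to pass the test, and it was higher. Differences were tested with limma on log2(normalised count + 1) over all genes with a mean of at least 5, with Benjamini-Hochberg adjustment, and a gene passed at an adjusted p under 0.05. Of 17906 genes tested, 9.06% passed, 5.28% higher and 3.79% lower, so that 1 passing member of 10 is near the background. MGAT3, which bisects the N-glycan core, had normalised counts of 98.0, 68.1 and 87.0 in shControl cells and 273, 209 and 349 in GALNT7 KD cells. The lowest knockdown library lay above the highest control library. The log2 fold change was 1.69 (SE 0.226, limma adjusted p = 0.0084). These are bulk cultures, in which a change in the mix of cells and a change of transcript per cell cannot be told apart. MGAT3 missed the threshold when all 59424 genes were tested without a filter on low values (limma adjusted p = 0.0755) and passed under the other alternatives.

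The remaining 9 members did not pass in GALNT7 KD cells, and their values were mostly close. ST6GAL1 had 597, 749 and 763 normalised counts in shControl cells and 953, 827 and 965 in GALNT7 KD cells, without overlap. The change was 0.39 on the log2 scale (95% interval 0.10 to 0.67, limma adjusted p = 0.0966). DESeq2 on the recovered reads placed it past the threshold (adjusted p = 0.0401). MGAT1 had 1861, 2075 and 1985 normalised counts in shControl cells and 1656, 1434 and 1795 in GALNT7 KD cells, again without overlap, a log2 fold change of -0.28 (limma adjusted p = 0.116). These 2 and MGAT3 were the 3 members of 10 whose groups did not overlap, where 32.5% of all tested genes did not.

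The early steps other than MGAT1 stayed within narrow intervals. The log2 fold change of MGAT2 was 0.016 (95% interval -0.13 to 0.16) and that of MAN2A1 was -0.10 (-0.32 to 0.12). The galactosyltransferase B4GALT1 had a log2 fold change of 0.047 (-0.086 to 0.18). Its values were 1407, 1486 and 1426 normalised counts in shControl cells and 1500, 1507 and 1456 in GALNT7 KD cells. The core fucosyltransferase FUT8 had a log2 fold change of 0.13 (-0.14 to 0.39), and the branching enzyme MGAT4B 0.19 (-0.041 to 0.41).

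MGAT5 and MGAT4A were the least certain members in GALNT7 KD cells. MGAT5 had 675, 853 and 935 normalised counts in shControl cells and 1325, 708 and 1084 in GALNT7 KD cells, with overlap, and a log2 fold change of 0.31 (95% interval -0.26 to 0.87). MGAT4A had 55.1, 39.8 and 29.3 normalised counts in shControl cells and 15.5, 90.7 and 42.4 in GALNT7 KD cells. Its log2 fold change of -0.03 had a 95% interval from -1.47 to 1.42, so that large changes in either direction lie within it. The median log2 fold change of the 10 members was 0.087, against -0.0063 over all tested genes.

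In GALNT7 OE cells 7 of the 10 members passed, 3 higher and 4 lower. MGAT2, MGAT3 and MGAT5 rose, and MGAT4A, MGAT4B, B4GALT1 and MAN2A1 fell. Of these, MGAT3 entered the test through its GALNT7 OE libraries alone, and without it 6 of 9 members passed. Of 18705 genes tested in DU145 cells, 43.5% passed, 22.9% higher and 20.5% lower, so a large share of all genes differed between these libraries too. Where only genes with a mean of at least 20 were tested, 7914 of 15552 passed, and 6 members did. MGAT2, MGAT4B, MGAT5, B4GALT1 and MAN2A1 lay between the 91.0 and 97.8 percentile of level among all tested genes. After each library was rescaled to a common 75th percentile, the calls over all genes were 3381 higher and 4745 lower, in place of 4290 and 3842, and the median log2 fold change over all genes moved from -0.011 to -0.11. Quantile normalisation gave 4124 higher and 3707 lower. The direction of each of the 7 members was kept under both other scalings. MGAT5 lost its call under both (limma adjusted p = 0.0787 and 0.0873), and MGAT1 (0.0313 and 0.0284) and FUT8 (0.0165 and 0.0126) gained one. The groups of 9 of the 10 members, MGAT3 among them, did not overlap, where those of 55.3% of all tested genes did not.

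The entry steps of the pathway went in both directions. MGAT2 had 3957, 3853 and 3906 normalised counts in the OE control and 5394, 5197 and 5417 in GALNT7 OE cells, and the groups were far apart compared with their spread. The log2 difference was 0.45 (SE 0.0390, limma adjusted p = 1.6e-04). MAN2A1 had 3433, 3416 and 3607 in the OE control and 2262, 2984 and 2871 in GALNT7 OE cells, and the log2 fold change was -0.38 (SE 0.105, limma adjusted p = 0.0253). MAN2A1 missed the threshold without OE control replicate 1, 2 or 3 (adjusted p = 0.0579 to 0.0755). MGAT1 had 1914, 1717 and 1704 in the OE control and 1658, 1155 and 1397 in GALNT7 OE cells, and the log2 fold change was -0.35, which did not pass (limma adjusted p = 0.0651). It passed without GALNT7 OE replicate 1 (limma adjusted p = 0.0142).

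Among the branching enzymes the MGAT4 pair fell, while MGAT5 was higher. MGAT4B had 6814, 6883 and 6880 normalised counts in the OE control and 4297, 3837 and 3672 in GALNT7 OE cells. Its log2 fold change of -0.80 (SE 0.0618, limma adjusted p = 9.7e-05) was the largest fall among the members. MGAT4A had 456, 435 and 402 in the OE control and 242, 291 and 267 in GALNT7 OE cells, and the log2 fold change was -0.69 (SE 0.104, limma adjusted p = 0.0019). Both paralogues fell with no overlap of their groups. MGAT5 had 3024, 2307 and 2537 in the OE control and 3234, 3225 and 3548 in GALNT7 OE cells, and the log2 fold change was 0.35 (SE 0.102, limma adjusted p = 0.0280). MGAT5 missed the threshold in 5 of the 6 fits that left 1 library out, all but that without OE control replicate 1 (adjusted p = 0.0534 to 0.0847).

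MGAT3 rose from very few reads. Its normalised counts were 1.91, 3.07 and 3.02 in the OE control and 47.1, 24.0 and 13.6 in GALNT7 OE cells. With the smallest value of a library taken as 1 read, these are 2, 3 and 3 reads against 47, 26 and 13, or 8 against 86 in all. In OE control replicate 3 and GALNT7 OE replicate 1 that value was 1.01 and 1.00, so that reads and normalised counts were nearly the same there. The ratio of the summed reads, corrected for library scaling, was 10.7 (exact conditional 95% interval 5.19 to 25.6, counting error only). The log2 fold change was 2.84 (SE 0.50, limma adjusted p = 0.0038) and depends on the pseudocount, with 3.03 at a pseudocount of 0.5 and 1.99 at 5. The GALNT7 OE libraries differed from each other by more than the control libraries did. MGAT3 passed the filter on low values through its GALNT7 OE libraries alone, and without it 6 of 9 members passed.

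Of the galactosyl-, sialyl- and core fucosyltransferase genes, B4GALT1 passed and ST6GAL1 and FUT8 did not, and differences between these genes were not tested. B4GALT1 had 9052, 9058 and 9001 normalised counts in the OE control and 6167, 6501 and 6496 in GALNT7 OE cells. Its log2 fold change was -0.50 (SE 0.0364, limma adjusted p = 7.7e-05). ST6GAL1 had 486, 451 and 340.6 in the OE control and 319.7, 370 and 340 in GALNT7 OE cells, and was the 1 member whose groups overlapped. Its log2 fold change of -0.30 (95% interval -0.65 to 0.05) did not pass (limma adjusted p = 0.147), but did without OE control replicate 3 (limma adjusted p = 0.0229). FUT8 had 1635, 1551 and 1534 in the OE control and 1331, 1517 and 1293 in GALNT7 OE cells, and the log2 fold change was -0.19 (limma adjusted p = 0.0798). It passed without GALNT7 OE replicate 2 (limma adjusted p = 0.0248). The median log2 fold change of the 10 members was -0.33, against -0.011 over all tested genes.

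**Figure D2:**
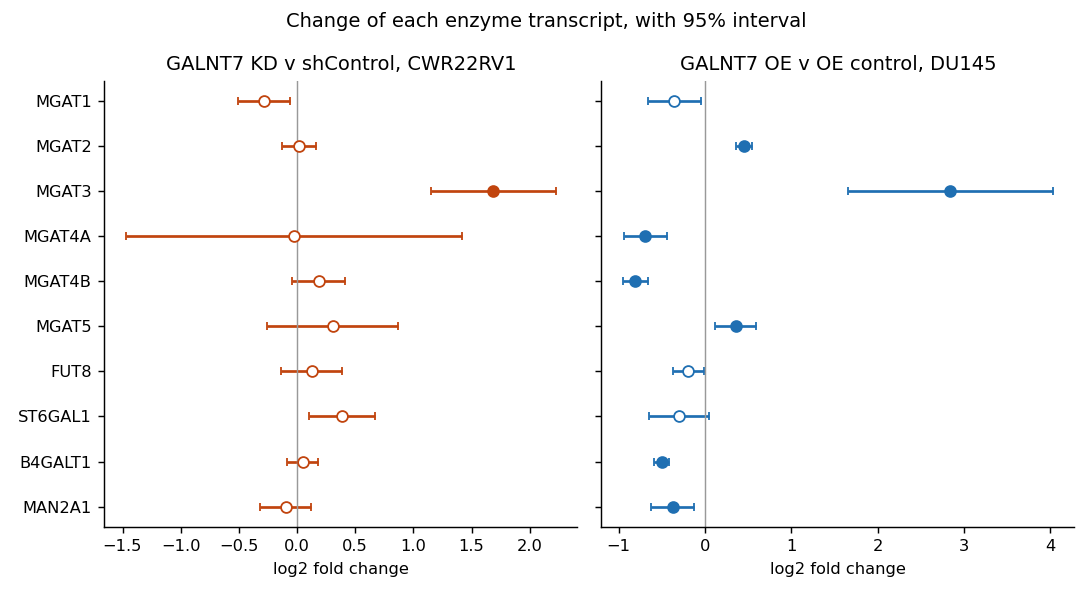
Log2 fold change of each enzyme with its 95% interval (limma), GALNT7 KD against shControl on the left and GALNT7 OE against OE control on the right; filled points passed at an adjusted p under 0.05. The filled points are MGAT3 alone on the left (1.69) and 7 enzymes on the right, from MGAT4B at -0.80 to MGAT3 at 2.84.

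Side by side, MGAT3 was the member that passed in both comparisons, at 1.69 in GALNT7 KD and 2.84 in GALNT7 OE cells. It was higher in both, although GALNT7 itself was lower in one and higher in the other. MGAT4B was 0.19 and -0.80, B4GALT1 0.047 and -0.50, and MGAT2 0.016 and 0.45. In DU145 cells MGAT3 entered the test through its GALNT7 OE libraries alone (control mean 2.67 normalised counts) and was not tested at a mean of at least 20, so that its call there lends no weight to the comparison. These differences between the comparisons were not tested, since the cell lines differ.

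The balance between enzymes that compete for or share a substrate was measured within each library as log2((a + 1)/(b + 1)) of their normalised counts. The log2 ratio of MGAT3 to MGAT5, bisecting against branching, was -2.77, -3.63 and -3.41 in shControl cells and -2.28, -1.76 and -1.63 in GALNT7 KD cells. It was higher by 1.38 without overlap of the groups. In DU145 cells the same ratio was -10.02, -9.15 and -9.30 in the OE control and -6.07, -7.01 and -7.92 in GALNT7 OE cells, higher by 2.49 without overlap, but its control values rest on 2, 3 and 3 reads of MGAT3. Each had p = 0.1 in an exact two-sided permutation test, the smallest p that 3 against 3 libraries can give, and p = 0.3 in that permutation test after adjustment over 6 tests. With no pseudocount the difference in DU145 cells was 2.90. The differences restate the log2 fold changes of MGAT3, 1.69 and 2.84, less those of MGAT5, 0.31 and 0.35. They are therefore not separate from the results of MGAT3.

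For the other pairs the libraries of the 2 groups overlapped in both cell lines. The log2 ratio of MGAT4A to MGAT4B differed by 0.11 in DU145 cells (exact permutation p = 0.5), although both fell there. In CWR22RV1 cells it differed by -0.21 (exact permutation p = 0.9), with GALNT7 KD libraries from -7.07 to -4.43. ST3GAL4, which adds sialic acid in another linkage than ST6GAL1, had a log2 fold change of 0.49 in GALNT7 KD (limma adjusted p = 0.0551) and 0.00058 in GALNT7 OE cells (limma adjusted p = 0.996). The log2 ratio of ST6GAL1 to ST3GAL4 differed by -0.11 in CWR22RV1 cells (exact permutation p = 0.4) and by -0.30 in DU145 cells (exact permutation p = 0.3).

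**Figure D3:**
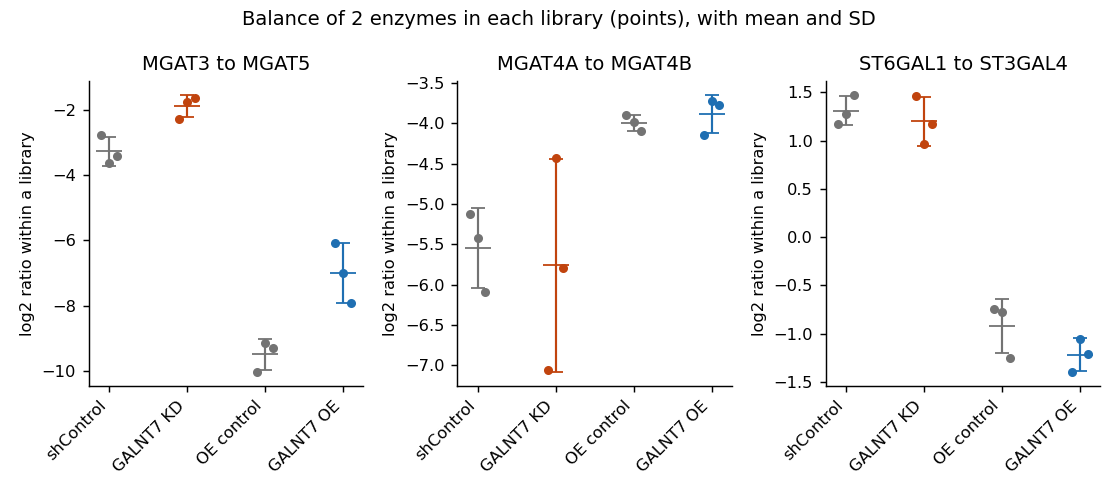
Log2 ratio of 2 enzymes within each library, for MGAT3 to MGAT5, MGAT4A to MGAT4B and ST6GAL1 to ST3GAL4; points are libraries, and the cross bar and whiskers are the group mean and SD. The MGAT3 to MGAT5 ratio lies higher in GALNT7 KD than in shControl and higher in GALNT7 OE than in OE control cells. Its OE control values rest on 2, 3 and 3 reads of MGAT3. The other ratios overlap between the groups of a cell line.

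The rest of the N-glycan pathway was described by counts over lists, beside the 9.06% of all genes that passed in GALNT7 KD, 5.28% higher and 3.79% lower. The passing share was 5.88% for precursor assembly and transfer, 18.8% for trimming, 12.5% for the paralogues, 18.2% for other antenna enzymes and 5.26% for sugar donors. In GALNT7 KD cells 2 of 34 genes of precursor assembly and transfer were higher and 0 lower, among them DPAGT1, which starts the lipid-linked precursor (1094 ± 85.8 to 1472 ± 61.5 normalised counts, SD, n = 3). Of 16 genes of endoplasmic reticulum and early Golgi trimming 3 were higher, and the mannosidase gene MAN1A1 went from 463 ± 10.5 to 657 ± 43.2. Of 8 tested paralogues of the members 1 was lower, MGAT5B, a relative of MGAT5 (190 ± 13.5 to 123 ± 15.5). Of 11 tested genes of other antenna enzymes, CHST10 was higher at 0.66 and B4GALNT3 lower at -1.07 on the log2 scale. B4GALNT3 lies on chromosome 12, where the median of 922 tested genes was -0.28 in this comparison, and none of the 10 members lies there. Of 19 genes for sugar donors 1 was higher, GFPT1, which controls entry into hexosamine synthesis (1530 ± 74.9 to 2262 ± 238). The median log2 fold changes of these 5 lists lay between -0.00048 and 0.19, against -0.0063 over all tested genes.

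In GALNT7 OE cells, of 34 genes of precursor assembly and transfer 12 were higher and 2 lower, with a median log2 fold change of 0.17. The 41.2% passing is near the 43.5% of all genes, of which 22.9% were higher and 20.5% lower, and the split of the list was not tested. The passing share was 75% for trimming and for the paralogues, 28.6% for other antenna enzymes and 63.2% for sugar donors. The glucosyltransferase gene ALG8 was higher (949 ± 52.1 to 1456 ± 42.4) and MAGT1, a subunit of the oligosaccharyltransferase, lower (1877 ± 142 to 1422 ± 36.1). Of 16 trimming genes 5 were higher and 7 lower, with MANEA at 0.54 and MAN1C1 at -1.65 on the log2 scale. Of 8 tested paralogues 3 were higher and 3 lower. MAN2A2, a relative of MAN2A1 that the trimming list holds too, fell from 3346 ± 145 to 1832 ± 33.7, a log2 fold change of -0.87, while B4GALT6 was at 0.51. Of 14 tested genes of other antenna enzymes 2 were higher and 2 lower, with FUT10 at 0.53 and B3GNT3 at -1.32. Of 19 genes for sugar donors 8 were higher and 4 lower. GNPNAT1, an enzyme of UDP-GlcNAc synthesis, rose from 1128 ± 74.9 to 2737 ± 238, and GFPT2, which catalyses the entry step of that route, fell from 1597 ± 261 to 1040 ± 84.4. The median log2 fold change was -0.045 for trimming, 0.023 for the paralogues, -0.22 for other antenna enzymes and 0.16 for sugar donors, against -0.011 over all tested genes.

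The O-glycan enzymes without GALNT7 were counted in the same way. In GALNT7 KD cells 5 of 21 tested genes were higher and 1 lower, or 28.6%, against 1 of 10 members and 9.06% of all genes. C1GALT1, which extends the Tn antigen, was at 1.15 and GCNT1, which branches the core, at -0.96 on the log2 scale. In GALNT7 OE cells 4 of 23 tested genes were higher and 4 lower, or 34.8%, against 7 of 10 members and 43.5% of all genes. Without MGAT3, which entered that test through its GALNT7 OE libraries alone, 6 of 9 members passed. GALNT10 was at 0.52 and GALNT16 at -2.02. The median log2 fold change of the O-glycan enzymes was 0.11 in GALNT7 KD and -0.043 in GALNT7 OE cells. The difference between the members and the O-glycan enzymes was not tested, and the lists were not matched for level.

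**Figure D4:**
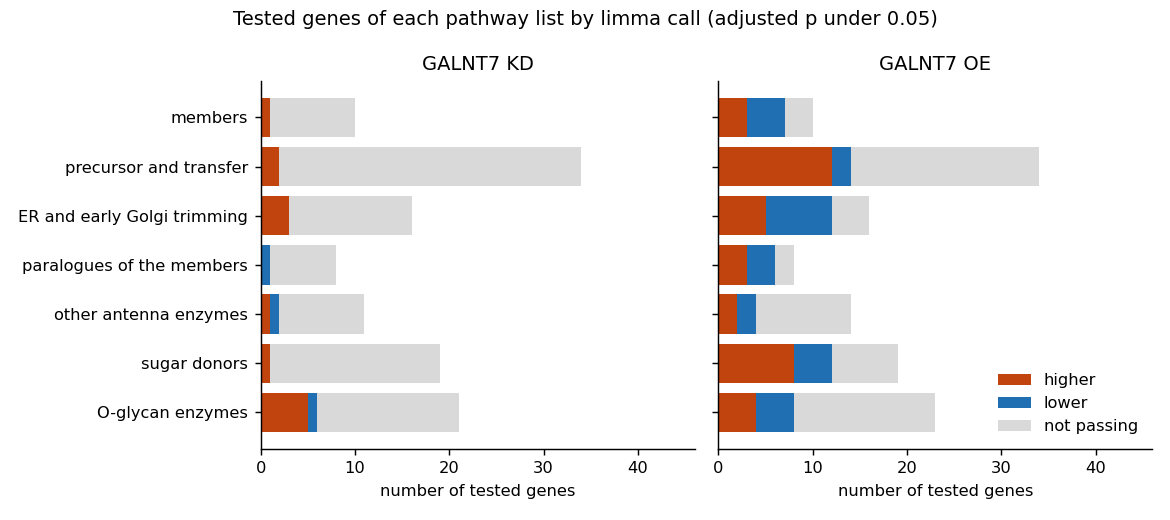
Number of tested genes in each list that were higher, lower or not passing (limma, adjusted p under 0.05) in GALNT7 KD (left) and GALNT7 OE (right). In GALNT7 OE cells 12 of 34 precursor genes were higher and 2 lower, and of the members 3 were higher and 4 lower.

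The members lie on chromosomes 2, 3, 5, 9, 14 and 22 of GRCh38, with gene models from GENCODE release 29. MGAT1 (ENSG00000131446, 180784782 to 180815652), MGAT4B (ENSG00000161013, 179797597 to 179806952) and MAN2A1 (ENSG00000112893, 109689366 to 109869625) lie on chromosome 5. MGAT4A (ENSG00000071073, 98619106 to 98731126) and MGAT5 (ENSG00000152127, 134119983 to 134454621) lie on chromosome 2, and MGAT2 (ENSG00000168282, 49620795 to 49623481) and FUT8 (ENSG00000033170, 65410592 to 65744121) on chromosome 14. MGAT3 (ENSG00000128268, 39457344 to 39492194) lies on chromosome 22, ST6GAL1 (ENSG00000073849, 186930485 to 187078553) on chromosome 3 and B4GALT1 (ENSG00000086062, 33104082 to 33167356) on chromosome 9. The median log2 fold change of the tested genes on these chromosomes ranged from -0.029 to 0.050 in GALNT7 KD and from -0.16 to 0.082 in GALNT7 OE cells. The exon of MGAT2 overlaps the antisense gene AL139099.1 over 2469 bases. That gene had at most 1.93 normalised counts in CWR22RV1 libraries. In DU145 libraries it had 4.62 to 36.1, against 3853 or more for MGAT2. MGAT4B shares 105 bases with SQSTM1 on the other strand. SQSTM1 had 2073 to 3321 normalised counts in CWR22RV1 libraries and 9141 to 12334 in DU145 libraries, where it was above MGAT4B (3672 to 6883). FUT8 shares 824 bases with FUT8-AS1, which had at most 37.2 normalised counts in any library, and B4GALT1 shares 72 bases with B4GALT1-AS1, at most 27.7. MGAT1 shares 395 bases with AC022413.1, whose values were not used here. The library kit kept the strand, but whether the counting used it is not given in the sources used here.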

How the data were processed

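RNA-seq of 12 libraries, 3 biological replicates in each of 4 groups, was analysed. The authors deposited normalised counts (a signal of reads divided by 1 size factor per library) for 59424 Ensembl genes, with 1 table per cell line. The submitters' processing notes name Salmon, DESeq2, FastQC, R 3.5.3 and hg38; roles are not given in the sources used here. The smallest value above 0 of each library was taken as 1 read, and 100% of the values were then whole within 0.01. In 2 DU145 libraries, OE control replicate 3 and GALNT7 OE replicate 1, that smallest value was itself near 1, at 1.01 and 1.00. Their values were whole within 0.01 as well, but no count test was run for DU145 cells. Symbols, positions and exon lengths came from GENCODE 29, which holds 94.4% of the identifiers.

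Each cell line was fitted alone in R 4.3.3 with limma 3.58.1 (eBayes with trend). Values were log2(normalised count + 1), and only genes whose mean was at least 5 entered, with Benjamini-Hochberg adjustment over all of them and a threshold of 0.05. Ratios were compared with exact permutation tests in scipy. The fits were also run on simulated counts in which only genes with a mean of at least 50 were changed. Changes as small as most of those of the members were not simulated, so that check does not cover them. Alternatives were other pseudocounts, filters, scalings and thresholds, no trend, the replicate block, libraries left out and, for knockdown only, edgeR 4.0.16 and DESeq2 1.42.0 on recovered reads. The members and lists were chosen with earlier results of these data known. Named genes were the members, GALNT7, ST3GAL4 and, per list and comparison, the passing genes with the largest rise and fall and a mean of at least 50. KRT18, KRT5, PTPRC, PECAM1, COL1A1, COL3A1, PDGFRB, DCN and the genes that overlap members were named as markers or overlapping genes. The values of 1 marker gene are not reported here.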

Additional observations from a re-analysis of the deposited data

How the results depend on the processing

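In GALNT7 KD the 1 passing member became 0 with no filter on low values, which tests more genes, and 2 with DESeq2 on recovered reads, which added ST6GAL1. With a replicate left out it was 1 to 1. In GALNT7 OE the 7 passing members ranged from 5 to 8 over the 16 alternatives and from 5 to 7 with a replicate left out. No change that passed turned direction. MGAT2, MGAT4A, MGAT4B and B4GALT1 passed in GALNT7 OE under all 15 alternatives run for them. MGAT3 entered that test through its GALNT7 OE libraries alone and was not tested at a mean of at least 20, so its calls there say nothing of stability. MGAT5 missed the threshold under 9 of 15 and MAN2A1 under 5 of 15 alternatives, while MGAT1 passed under 4, FUT8 under 3 and ST6GAL1 under 1. The cause was not tested. Over all genes, GALNT7 KD calls were 1623, against 536 with no filter, 1002 with the replicate block, 996 without trend, 2642 with DESeq2 and 539 to 1336 with a replicate left out.

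Deviations of libraries with the same replicate number correlated at -0.011 to 0.075 in CWR22RV1 and at 0.016 to 0.043 in DU145 cells. Whether the numbers mark a pairing was not tested. Under the replicate block 1 member passed in GALNT7 KD and 8 in GALNT7 OE, where MGAT1 was added (limma adjusted p = 0.0329). Each library correlated best with its own number for 3 of 3 numbers in DU145 and 1 of 3 in CWR22RV1 cells. edgeR and DESeq2 were not run for GALNT7 OE, so its calls were not compared with those of a count test. The depth gave 8 MGAT3 reads over the OE control libraries.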
